A study of Gallus gallus with 12 samples.

Results

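The comparison described here asked what blocking bone morphogenetic protein (BMP) signalling added to a retinoic acid (RA) treatment in the developing chick face. It set the 3 arrays titled Noggin and Retinoic acid (Noggin+RA) against the 3 titled Tris and Retinoic Acid (Tris+RA), 6 of the 12 arrays of the series. Of the 37693 chicken probe sets on the array, the 21354 that passed a filter on dim signal were tested. Each array carried RNA of 1 pool of 12 to 15 maxillary prominences, mesenchyme together with epithelium, so n = 3 pools per group. The remaining 6 arrays gave the same Noggin contrast without RA (Noggin+DMSO against Tris+DMSO), used to show where the 2 contrasts differed. They also entered the filter, the choice of probe set per gene and the estimate of spread behind every test.

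Every embryo received 2 beads at stage 15, placed in the tissue that forms the upper jaw, and was left for 16 h until about stage 18. In Noggin+RA embryos one bead had been soaked in Noggin protein at 1 mg/ml and the other in all-trans RA at 1 mg/ml. In Tris+RA embryos the Noggin bead was replaced by a bead in Tris buffer, and the RA bead was the same, so both groups compared had been exposed to RA. Noggin+DMSO and Tris+DMSO embryos carried a bead soaked in dimethyl sulfoxide, the solvent of RA, in place of the RA bead. The beads are local sources and the dissected tissue was pooled, so the values average cells near to and far from a bead. Where a transcript was lower, fewer cells of a type and less RNA per cell cannot be told apart in such bulk RNA.

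BMPs are secreted ligands of the TGF-beta superfamily whose receptors phosphorylate SMAD proteins, which then switch on targets such as the ID and MSX genes. Noggin is a secreted antagonist that binds BMP ligands and keeps them from their receptors. RA is a vitamin A derivative that enters cells and acts through nuclear receptors. In the face both signals help to set the identity of the outgrowths that flank the mouth. In chicken embryos, beads carrying both agents are known to change the identity of the maxillary prominence, the outgrowth that makes the side of the upper beak.

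The 6 arrays correlated at 0.966 to 0.978 (Pearson r of log2 values across probe sets). The median intensity of an array was 41.4 ± 0.57 in Noggin+RA and 36.6 ± 0.782 in Tris+RA (SD, n = 3 each). The 5' over 3' ratio of the GAPDH control probe sets, a measure of how complete the RNA was, was lower in Noggin+RA (0.703 to 0.736) than in Tris+RA (0.784 to 0.849). The median of the virus probe sets, a measure of background, was 6.08 ± 0.293 in Noggin+RA and 4.76 ± 0.181 in Tris+RA. Each of these pairs of groups did not overlap, which for 3 against 3 gives an exact permutation p of 0.1, the smallest possible (two-sided, 0.2 after adjustment over 6 array measures). The background level of an array, taken from the virus probe sets, was 39.6 to 45.4 in Noggin+RA and 33.6 to 36.1 in Tris+RA. Its part in the differences of dim genes was not tested. Facial mesenchyme markers were present in both groups: 15 of 16 listed genes were kept, with summed intensities of 12030 to 13000 in Noggin+RA and 11780 to 12730 in Tris+RA. Of these 15, 0 were called by limma. At an unadjusted p below 0.05, 2 were higher and 4 lower, where 8.11% and 5.24% of all genes were. The part of mesenchyme content in the differences was not tested.

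Of 21354 chicken probe sets tested, 46 (0.215%) passed an adjusted p of 0.05 in limma, 35 higher (0.164%) and 11 lower (0.0515%) in Noggin+RA than in Tris+RA. They stood for 33 genes with a symbol, 26 higher and 7 lower, and 8 further probe sets had no symbol. A probe set had to exceed its array's median on at least 3 of 12 arrays to be tested. A called one without a symbol (68.56, 42.16 and 60.85 in Noggin+RA) did so only on the Noggin+RA arrays, so its rise is not independent of that filter. The called probe set of CDKN2B did so on the Tris+RA arrays and otherwise only on Tris+DMSO replicate 1. That of PEMT did so on the Noggin+RA arrays and otherwise only on Tris+DMSO replicates 1 and 3. Neither would have been tested without the higher of the groups compared, so the same limit holds for both. Counted by the brightest probe set of each gene, 28 of 10158 genes were called (0.276%), 21 higher (0.207%) and 7 lower (0.0689%). The Noggin+RA and Tris+RA values did not overlap for any of the 46, against 21.1% of all probe sets tested without overlap. The estimated difference was at least 2-fold for 35 of them, 29 higher and 6 lower, before any lower limit for background was set. For some of these, such as OGN, SPON2 and CDKN2B, the lower limit given below is under 2. At an unadjusted p below 0.05 there were 2929 probe sets (13.7%). The smallest adjusted p was 0.00295.

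**Figure D1:**
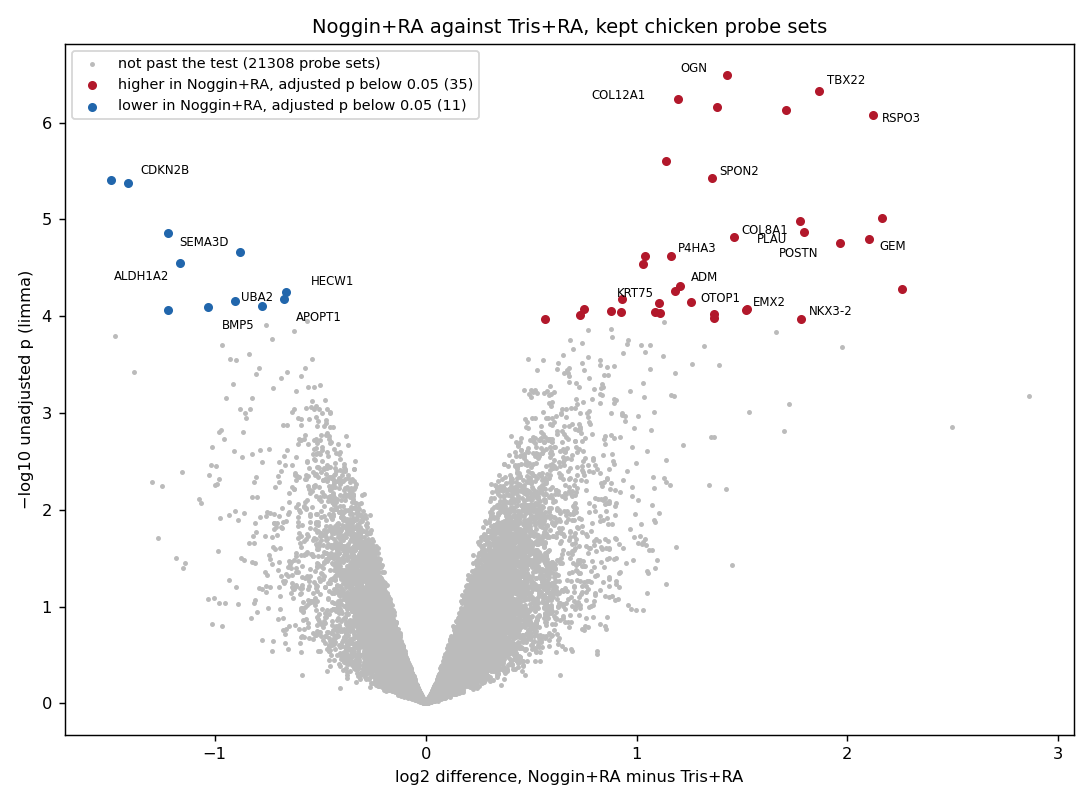
Each point is 1 of the 21354 probe sets tested, placed by its log2 difference of Noggin+RA minus Tris+RA (horizontal axis) and by the −log10 of its unadjusted limma p (vertical axis). Red points are the 35 called higher and blue points the 11 called lower in Noggin+RA. A reader should see RSPO3, TBX22, COL12A1 and OGN highest among the labelled rises and CDKN2B highest among the labelled falls.

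These calls rested on small groups. Leaving out 1 array in turn gave 12 to 37 calls. Of the 22 genes named below by a rule, 15 were still called when replicate 1 of Noggin+RA was left out, 7 when its replicate 2 was and 6 when its replicate 3 was. Leaving out an array of Tris+RA kept 9 of the 22 (replicate 1), 7 (replicate 2) or 5 (replicate 3). RSPO3, TBX22, COL12A1 and OGN were called in each of these 6 fits, with a highest adjusted p of 0.0204. CDKN2B lost its call only without Tris+RA replicate 3 (adjusted p = 0.0574), as did SPON2 (adjusted p = 0.0527). With the GAPDH 5' over 3' ratio as a covariate, limma called 0 probe sets, with 1720 at an unadjusted p below 0.05 and a smallest adjusted p of 0.0593. That ratio did not overlap between the groups, so this fit cannot tell RNA completeness and Noggin apart. All 46 kept their direction in every alternative fit. Since their groups did not overlap, only another scaling or the GAPDH covariate could have changed a direction.

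Below, a difference is the log2 difference of Noggin+RA minus Tris+RA on the scale of intensity + 16, a fold is its antilog on that scale, and each p is limma's, adjusted over all probe sets tested. A gene is represented by its brightest kept probe set. Where at most 1 of 3 arrays of the lower group exceeded the background level, the fold is a lower limit.

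Among transcription factors, 3 patterning genes rose when Noggin was added to RA. TBX22 is a T-box factor of the palate and face whose mutation causes cleft palate in humans. Its intensities were 295, 266 and 338.5 on the Noggin+RA arrays and 63.8, 69.9 and 78.4 on the Tris+RA arrays. The groups stood far apart, with the lowest Noggin+RA array above 3 times the highest Tris+RA array. The difference was 1.86 (SE 0.187, adjusted p = 0.00295), a fold of 3.64. When only the 6 arrays compared were fitted, TBX22 was the single probe set called (adjusted p = 0.0261).

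NKX3-2, also known as Bapx1, marks the forming jaw joint in chick and mouse. It read 80.1, 154 and 191 in Noggin+RA and 38.8, 13.1 and 35.9 in Tris+RA. The groups did not overlap, and only 1 of 3 Tris+RA arrays was above background, so the fold was at least 2.88 (difference 1.78, SE 0.311, adjusted p = 0.0496). EMX2 is a homeobox factor of the forebrain and urogenital system in mouse. Its values were 155, 139 and 248 in Noggin+RA, against 40.1, 74.8 and 42.6 in Tris+RA, a fold of 2.87 (difference 1.52, SE 0.259, adjusted p = 0.0480). NKX3-2 kept its call only without Noggin+RA replicate 1 (highest adjusted p 0.191), and EMX2 kept it in 0 of the 6 fits that left out an array (highest 0.174).

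These 3 genes were the called members of a list of maxillary and first arch factors, of which 22 of 31 were kept. The 3 rises stood against a background of 0.207% of genes called higher, and 0 members fell by limma (5 lower at an unadjusted p below 0.05, where 5.24% of genes were). Here and for the other lists, members were chosen with earlier results of these data known, so such shares are descriptions only. The maxillary and first arch list as a whole leaned neither way, with 9 estimates above 0, 13 below and a median of -0.06. Several homeobox and mesenchymal factors had lower estimates without passing the test. MECOM, a zinc finger factor, read 76.7, 64.7 and 54.9 in Noggin+RA and 174, 139.9 and 103 in Tris+RA (difference -0.91, adjusted p = 0.0985). PRRX1, a homeobox gene of limb and face mesenchyme, read 690.0, 783 and 516 in Noggin+RA and 1060, 840.5 and 947 in Tris+RA (difference -0.52, adjusted p = 0.279). LHX8, a LIM homeobox factor of first arch mesenchyme, gave -0.88 (adjusted p = 0.319), and TCF21, a basic helix-loop-helix factor, gave -0.86 (adjusted p = 0.119).

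A list of frontonasal and nasal factors, the genes of the midface, had 14 of 20 members kept and 0 called by limma. At an unadjusted p below 0.05, 1 was higher, where 8.11% of all genes were. Its median of 0.04 turned to -0.06 after quantile normalization and -0.09 after median centring, so no direction is given. ALX1, a homeobox gene of frontonasal mesenchyme, read 1001, 659 and 1339 in Noggin+RA and 528, 1175 and 742 in Tris+RA, and these values overlapped widely (difference 0.31, adjusted p = 0.699). The hedgehog and forkhead list had 13 of 24 members kept and 0 called (2 higher at an unadjusted p below 0.05, where 8.11% of all genes were). Within it FOXD1, a forkhead factor of facial and kidney mesenchyme, read 734, 967 and 1031 in Noggin+RA and 476.5, 333 and 309.9 in Tris+RA. These groups did not overlap, but the difference of 1.26 missed the threshold (adjusted p = 0.0820).

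The WNT pathway list held 1 rise. RSPO3, or R-spondin 3, is a secreted ligand of LGR receptors that strengthens WNT signalling. It read 953, 863.5 and 1422 in Noggin+RA and 227, 177 and 300.5 in Tris+RA. The averages were 1079 ± 299.8 and 235 ± 62.0 (SD, n = 3 each), a difference of 2.12 (SE 0.225, adjusted p = 0.00295) and a fold of 4.35. Both of its kept probe sets were called, the dimmer one with a difference of 1.37 (adjusted p = 0.0496).

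RSPO3 was the only called member of a WNT list of which 33 of 40 genes were kept, where 0.207% of all genes were called higher. At an unadjusted p below 0.05 the list held 8 higher and 5 lower members, where 8.11% and 5.24% of all genes were. Its median was 0.10, and -0.02 after median centring. SFRP4, a secreted Frizzled-related modulator, read 119, 102 and 248 in Noggin+RA and 46.2, 48.5 and 50.9 in Tris+RA (difference 1.32, adjusted p = 0.0682). RSPO1, a second R-spondin, read 132, 115 and 147 in Noggin+RA and 70.7, 45.6 and 48.3 in Tris+RA (difference 1.07, adjusted p = 0.0680). In both genes every Noggin+RA array lay above every Tris+RA array, short of the threshold. That held for 8 of the 33 kept members, against 12.0% of all genes. In 8 others every Noggin+RA array lay below every Tris+RA array, against 9.73% of all genes.

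Of the 28 gene lists examined, that of matrix and collagen genes had the most rises by count. It was also the list with the most kept genes, and the maxillary and first arch list had 3 rises among 22 kept. Of 36 listed, 35 were kept and 4 rose (POSTN, COL8A1, SPON2 and COL12A1), where 0.207% of all genes did, and 0 fell by limma (0 at an unadjusted p below 0.05). In 17 of the 35 every Noggin+RA array was above every Tris+RA array, against 12.0% of all genes. Estimates were above 0 for 29 of 35 with a median of 0.32, while all genes had a median of 0.02. After median centring 27 stayed above 0 with a median of 0.19, and after quantile normalization 31 did with a median of 0.31. The summed intensity of the list was 32010 to 35930 in Noggin+RA and 25790 to 27560 in Tris+RA.

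COL12A1 encodes a collagen that associates with the surface of fibrils. Its intensities were 1075, 1159 and 1373 in Noggin+RA and 476, 488.5 and 579 in Tris+RA, which were tight and well separated. The difference was 1.20 (SE 0.122, adjusted p = 0.00295), and all 3 of its kept probe sets were called. POSTN, or periostin, is a secreted matrix protein of periosteum and fibrous tissue. It was at 2014, 2384 and 2884 in Noggin+RA and 1026, 382 and 556.5 in Tris+RA, a fold of 3.90 (difference 1.96, SE 0.282, adjusted p = 0.0218). Both of its kept probe sets were called, and its call was kept in 2 of the 6 fits that left out an array (highest adjusted p 0.106).

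COL8A1, a short-chain network collagen, read 239, 374 and 258 in Noggin+RA and 134, 84.9 and 69.8 in Tris+RA, a fold of 2.76 (difference 1.46, adjusted p = 0.0212). SPON2, a secreted spondin of the matrix, read 70.4, 79.4 and 68.8 in Noggin+RA and 18.8, 23.3 and 14.2 in Tris+RA (difference 1.36, adjusted p = 0.00904). The Tris+RA arrays lay below background, so the fold of SPON2 was at least 1.75. OGN, or osteoglycin, is a small leucine-rich proteoglycan. It read 68.2, 77.3 and 110 in Noggin+RA and 19.2, 24.3 and 19.7 in Tris+RA (difference 1.43, SE 0.139, adjusted p = 0.00295), at least 1.97-fold. P4HA3, a subunit of the prolyl hydroxylase that modifies collagen, read 106, 136 and 146.5 in Noggin+RA and 62.7, 52.6 and 33.9 in Tris+RA (difference 1.16, adjusted p = 0.0257).

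The collagen genes of the list other than COL8A1 and COL12A1 did not pass the test. Their differences ran from -0.14 for COL5A2 (adjusted p = 0.832) to 0.57 for COL6A1 (adjusted p = 0.191), with COL1A1 at 0.36 (adjusted p = 0.265). DCN, the proteoglycan decorin, gave 0.44 (adjusted p = 0.153). Of the proteolysis list, 19 of 28 genes were kept and 1 rose, where 0.207% of all genes did. That gene was PLAU, the urokinase plasminogen activator, a secreted protease that cuts plasminogen. PLAU read 654, 797 and 1308 in Noggin+RA and 188, 321.5 and 235 in Tris+RA, a fold of 3.47 (difference 1.79, SE 0.251, adjusted p = 0.0209). The other kept members included the inhibitors TIMP2 (0.48) and TIMP4 (0.53). In this list 17 of 19 estimates were above 0 with a median of 0.29, against 5447 of 10158 and 0.02 over all genes. At an unadjusted p below 0.05, 4 members were higher, where 8.11% of all genes were. COL8A1 and PLAU each kept their call in 2 of the 6 fits that left out an array (highest adjusted p 0.0903). Only 1 of 3 kept probe sets of COL8A1 was called, and 1 of 2 for SPON2 and PLAU, where the dimmer probe sets also had estimates above 0.

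**Figure D2:**
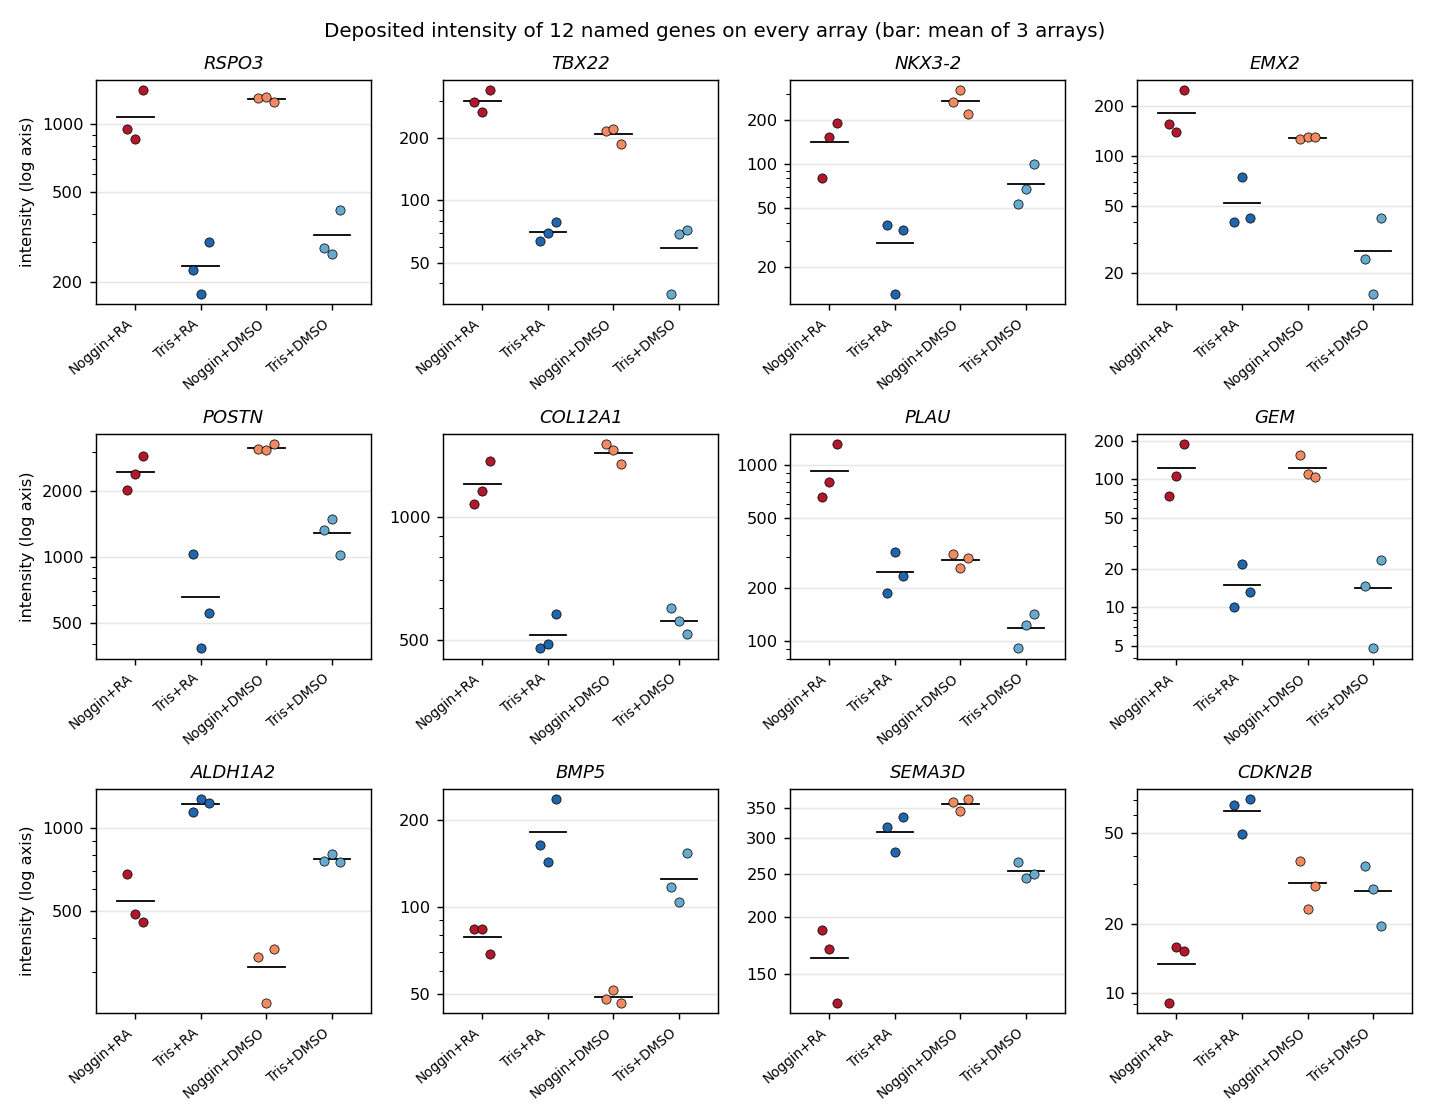
Intensity on a log axis for 12 genes in the Noggin+RA, Tris+RA, Noggin+DMSO and Tris+DMSO groups, with 1 point per array and a bar at the mean of 3 arrays. For RSPO3 the Noggin+RA arrays sit between 863.5 and 1422 and the Tris+RA arrays between 177 and 300.5, and for SEMA3D the Noggin+RA arrays (129 to 188) lie below Tris+RA (279 to 334) while Noggin+DMSO (344 to 367) lies above Tris+DMSO (244 to 266).

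The largest rise of a called probe set with a symbol was that of C11orf96, an open reading frame code outside the naming rule, given here after its values were seen. It read 438, 394 and 1303 in Noggin+RA and 112, 116 and 117 in Tris+RA (difference 2.26, SE 0.365, adjusted p = 0.0467), with the Noggin+RA arrays far apart but above every Tris+RA array.

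Rises outside these groups included signalling and channel genes. GEM is a small GTP-binding protein that regulates calcium channels and the cytoskeleton. It read 74.8, 107 and 188 in Noggin+RA and 10.01, 21.9 and 13.2 in Tris+RA, with 0 of 3 Tris+RA arrays above background, so the fold was at least 2.60 (difference 2.10, SE 0.299, adjusted p = 0.0212). Its other kept probe set missed the threshold (difference 1.18, adjusted p = 0.0840). ADM, the vasodilator peptide adrenomedullin, read 987, 1070 and 1244 in Noggin+RA and 386, 484 and 542 in Tris+RA (difference 1.21, adjusted p = 0.0454). OTOP1, a proton channel needed for the balance organ of the mouse, read 95.2, 131 and 206 in Noggin+RA and 42.3, 50.9 and 51.5 in Tris+RA (difference 1.26, adjusted p = 0.0480).

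KRT75 is a keratin of skin appendages, known in chicken from feathers. It read 470.0, 298 and 382 in Noggin+RA and 134, 135 and 215 in Tris+RA, a fold of 2.27 (difference 1.18, adjusted p = 0.0467). It was the called member of the epithelial marker list, of which 14 of 23 genes were kept, where 0.207% of all genes were called higher. That list had 12 estimates above 0, against 5447 of all 10158 genes, and a median of 0.24. At an unadjusted p below 0.05, 4 members were higher, where 8.11% of all genes were. Summed intensities were 8332 to 10290 in Noggin+RA and 6746 to 8791 in Tris+RA. CDH1, the adhesion protein of epithelia, had a difference of 0.53. The part of epithelial content in the KRT75 value was not tested. KRT75, OTOP1, GEM, P4HA3 and ADM each lost their call in 4 or more of the 6 fits that left out an array.

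Direct targets of BMP signalling were lower in estimate throughout, but none passed the test. Of 18 listed genes, 17 were on the array and 15 were kept. limma called 0 of the 15, and 8 were lower and 0 higher at an unadjusted p below 0.05, where 5.24% of all genes were lower. All 15 estimates were below 0 with a median of -0.42, against 0.02 over all genes. They were also all below 0 after quantile normalization and median centring, and with the GAPDH covariate 13 were. In 8 of 15 every Noggin+RA array lay below every Tris+RA array, against 9.73% of all genes. The summed intensity of the list was 5595 to 8338 in Noggin+RA and 9722 to 11870 in Tris+RA. Without the filter on dim probe sets 16 of 17 were below 0 with a median of -0.37.

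ID1 encodes an inhibitor of basic helix-loop-helix factors and is a standard readout of BMP signalling. It read 1601, 1416 and 1038 in Noggin+RA and 1868, 2020 and 2227 in Tris+RA. The groups did not overlap, and the difference of -0.61 (SE 0.154) had an adjusted p of 0.148. SMAD6, an inhibitory SMAD induced by the pathway, read 669, 591 and 574 in Noggin+RA and 941, 1066 and 917 in Tris+RA (difference -0.66, adjusted p = 0.0840), the smallest adjusted p of the list. ATOH8, a basic helix-loop-helix factor, read 188, 193 and 146 in Noggin+RA and 272, 256 and 241 in Tris+RA (difference -0.51, adjusted p = 0.133).

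The biggest estimates belonged to targets whose Tris+RA arrays were spread out. MSX2, a homeobox factor of facial mesenchyme, read 104, 74.0 and 59.7 in Noggin+RA and 115, 362 and 167 in Tris+RA (difference -1.16, adjusted p = 0.185). BAMBI, a decoy receptor for the pathway, read 1186, 758 and 713 in Noggin+RA and 1216, 2485 and 1645 in Tris+RA (difference -0.97, adjusted p = 0.138). In both genes the lowest Tris+RA array was replicate 1 and the highest was replicate 2. GATA3, a zinc finger factor, read 136, 97.2 and 140.5 in Noggin+RA and 223, 345 and 212.5 in Tris+RA (difference -0.96, adjusted p = 0.145). MSX1 (-0.37, adjusted p = 0.313) and ID2 (-0.37, adjusted p = 0.455) were lower by less, and in ID2 the groups overlapped, since replicate 2 of Noggin+RA at 3376 was within the Tris+RA range of 3190 to 3491.

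**Figure D3:**
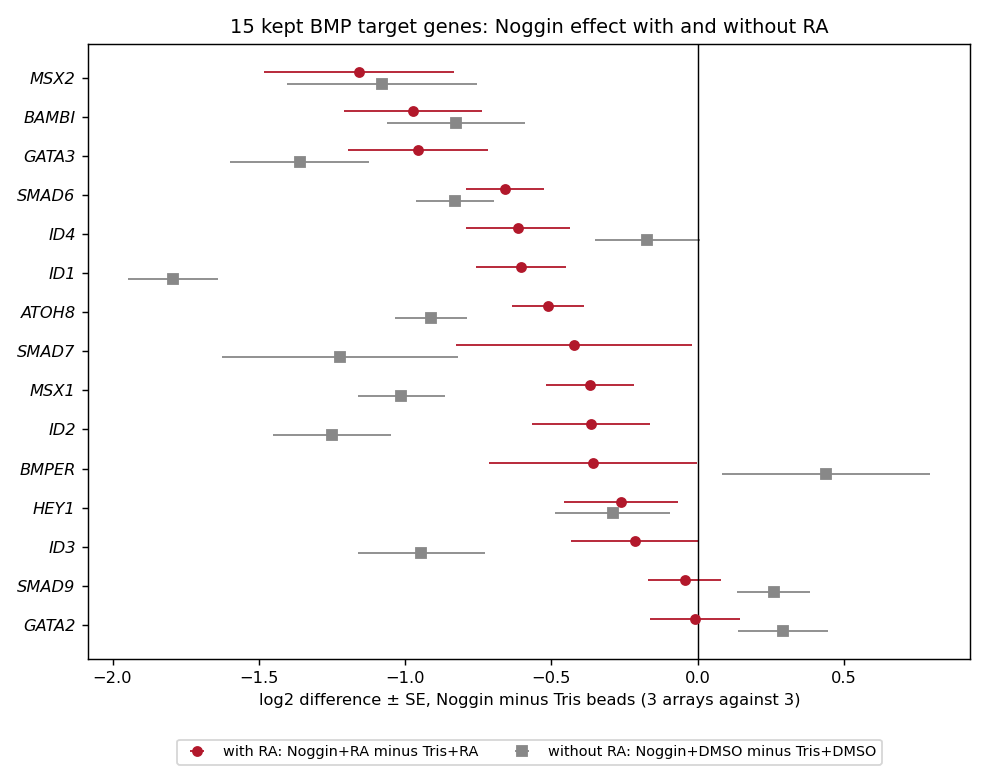
Log2 difference of Noggin over its Tris control for 15 BMP target genes, with RA (red, Noggin+RA minus Tris+RA) and without RA (grey, Noggin+DMSO minus Tris+DMSO). Bars are 1 SE of the limma estimate, and the vertical line marks 0. All 15 red points lie below 0, and 12 of 15 are closer to 0 than their grey partners, for example ID1 at -0.61 with RA and -1.79 without.

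Among BMP ligands, receptors, antagonists and transducers, 25 of 33 were kept and 1 fell, where 0.0689% of all genes did. BMP5, a BMP ligand, read 83.6, 83.7 and 68.9 in Noggin+RA and 164, 143 and 237 in Tris+RA, a fold of 2.05 lower (difference -1.03, SE 0.175, adjusted p = 0.0480). Its call was kept in 0 of the 6 fits that left out an array (highest adjusted p 0.179). Among the other members, 0 rose by limma, while 8 were higher at an unadjusted p below 0.05, where 8.11% of all genes were. The median of the list was 0.21, and 0.09 after median centring.

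Other ligands gave higher values that did not pass the test. BMP7 read 359, 458 and 619 in Noggin+RA and 251, 251 and 226 in Tris+RA (difference 0.90, adjusted p = 0.108). BMP3, which in mammals opposes other BMPs in bone, read 140.3, 134 and 266 in Noggin+RA and 63.0, 10.4 and 72.3 in Tris+RA (difference 1.72, adjusted p = 0.112). GDF5, a ligand of forming joints, read 211, 186 and 235 in Noggin+RA and 129.8, 120.3 and 124 in Tris+RA (difference 0.68, adjusted p = 0.0657). BMP4 (0.18) and BMP2 (-0.15) were near 0. The transcript of NOG itself was below the filter on dim probe sets, and the array does not measure the protein on the bead.

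The RA pathway was examined because both groups carried the RA bead. ALDH1A2, the enzyme that makes RA from retinaldehyde in most embryonic tissue, fell. It read 684, 487 and 457 in Noggin+RA and 1145, 1275 and 1235 in Tris+RA, 2.24-fold lower (difference -1.16, SE 0.176, adjusted p = 0.0282). Its other kept probe set was called as well (difference -1.49, adjusted p = 0.00904). The call on the brighter probe set was kept only without Noggin+RA replicate 1, and its highest adjusted p was 0.135.

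ALDH1A2 was the only call among 18 kept of 25 listed RA genes, where 0.0689% of all genes fell. At an unadjusted p below 0.05, 5 were higher and 1 lower, where 8.11% and 5.24% of all genes were. Estimates were above 0 for 12 of 18, with a median of 0.25. CYP26A1, the enzyme that degrades RA and is itself induced by it, read 1236, 399.8 and 1360 in Noggin+RA and 507, 2711 and 1933 in Tris+RA, so the groups overlapped (difference -0.65, adjusted p = 0.649). DHRS3, an RA-induced reductase, read 1088, 975 and 1598 in Noggin+RA and 559.6, 1691 and 966 in Tris+RA (difference 0.29, adjusted p = 0.722). RARB, an RA receptor gene induced by RA, gave 0.21. Replicates of 1 group differed in these targets: Tris+RA replicate 1 had the lowest CYP26A1 and DHRS3 values of its group and Noggin+RA replicate 2 the lowest of its own. NR2F2, an orphan nuclear receptor, read 1867, 2316 and 2292 in Noggin+RA and 1472, 1623 and 1448 in Tris+RA (difference 0.50, adjusted p = 0.101). Of 19 listed HOX genes 5 were kept and 0 were called by limma (0 at an unadjusted p below 0.05).

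The falls named by the rule were 7, and BMP5 and ALDH1A2 are given above. CDKN2B encodes the cyclin-dependent kinase inhibitor p15, which restrains entry into the cell cycle. It read 9.07, 15.9 and 15.4 in Noggin+RA and 66.5, 49.9 and 70.8 in Tris+RA (difference -1.41, SE 0.175, adjusted p = 0.00904). None of the Noggin+RA arrays was above background, so the fold was at least 1.35 lower. Without the Tris+RA arrays CDKN2B would not have passed the filter on dim signal, so its fall is not independent of that filter. It was the called member of 28 kept cell cycle genes, where 0.0689% of all genes fell. Of the list 0 rose by limma, and at an unadjusted p below 0.05 there were 0 higher and 3 lower, where 8.11% and 5.24% of all genes were. Its median was -0.05.

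SEMA3D is a secreted semaphorin that guides axons and migrating cells. It read 188, 170.2 and 129 in Noggin+RA and 318, 279 and 334 in Tris+RA (difference -0.88, SE 0.129, adjusted p = 0.0256). The groups did not overlap for this probe set, while a dimmer one for the gene gave -0.24 (adjusted p = 0.588). SEMA3D was the called member of 30 kept axon guidance genes, where 0.0689% of all genes fell. At an unadjusted p below 0.05, 1 of the 30 was higher and 2 were lower, where 8.11% and 5.24% of all genes were. The ephrin receptor EPHA4 read 29.0, 44.1 and 24.9 in Noggin+RA and 89.6, 77.8 and 51.8 in Tris+RA and did not pass the test (difference -0.87, adjusted p = 0.141). Its Noggin+RA values lay below the background levels of those arrays (39.6, 45.4 and 39.9).

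UBA2, a subunit of the enzyme that activates SUMO, read 1147, 1162 and 1195 in Noggin+RA and 1925, 1679 and 2016 in Tris+RA (difference -0.67, adjusted p = 0.0480). APOPT1, a mitochondrial protein, read 341, 367 and 376 in Noggin+RA and 668, 663 and 563 in Tris+RA (difference -0.78, adjusted p = 0.0480). HECW1, a ubiquitin ligase, read 103, 108 and 117 in Noggin+RA and 168, 191 and 188 in Tris+RA (difference -0.66, adjusted p = 0.0467), but 2 dimmer probe sets of HECW1 had estimates above 0. Only 1 of 2 kept probe sets of UBA2 and 1 of 3 of APOPT1 were called, with estimates below 0 for the others. UBA2, APOPT1 and HECW1 lost their calls in each of the 6 fits that left out an array, with highest adjusted p values of 0.154, 0.151 and 0.149. Next by p were 3 genes that did not pass: PHPT1L (-0.56, adjusted p = 0.0511), FAM132A (-0.97, adjusted p = 0.0680) and CHODL (-0.93, adjusted p = 0.0779).

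The same Noggin bead without RA gave many more calls. Noggin+DMSO against Tris+DMSO, which shares no array with Noggin+RA against Tris+RA but was fitted with the same estimate of spread, called 1058 probe sets (4.95%). By the brightest probe set this was 578 genes (5.69%), 347 higher (3.42%) and 231 lower (2.27%). Of the 46 called with RA, 40 were also called without it, which is 87% of the first list and 3.78% of the second, and 39 of the 40 had the same sign. Of the 1058 called without RA, 963 (91%) had the same sign with RA, against 72.1% of all probe sets tested. The difference was smaller in size with RA for 1011 of them (95.6%). That share is a description, since those probe sets were selected on their values without RA. Of the 46 called with RA, 29 were larger in size with RA than without, a count likewise selected on the values with RA. Over all probe sets the median size of the difference was 0.157 with RA and 0.208 without, and the 2 sets of differences correlated at r = 0.534 (Spearman rho 0.542) across probe sets, which are not independent replicates.

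Other measures also differed between the groups without RA. The GAPDH 5' over 3' ratio was 0.619 to 0.699 in Noggin+DMSO and 0.813 to 0.839 in Tris+DMSO. Red blood cell markers had a median difference of 0.97 without RA, with 3 of 15 called higher, where 3.42% of all genes were, and thrombocyte markers one of 0.92, with 3 of 5 called higher. White blood cell markers had a median of 0.48 with 1 of 12 called higher. Facial mesenchyme markers had a median of -0.41, with 5 of 15 called lower, where 2.27% of all genes were. The mesenchyme list holds MSX1, described above among the BMP targets, and PRRX1 and LHX8, described above with the maxillary factors. It is therefore not a measure independent of those genes. The part of these measures in the differences without RA, those of the BMP targets included, was not tested.

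**Figure D4:**
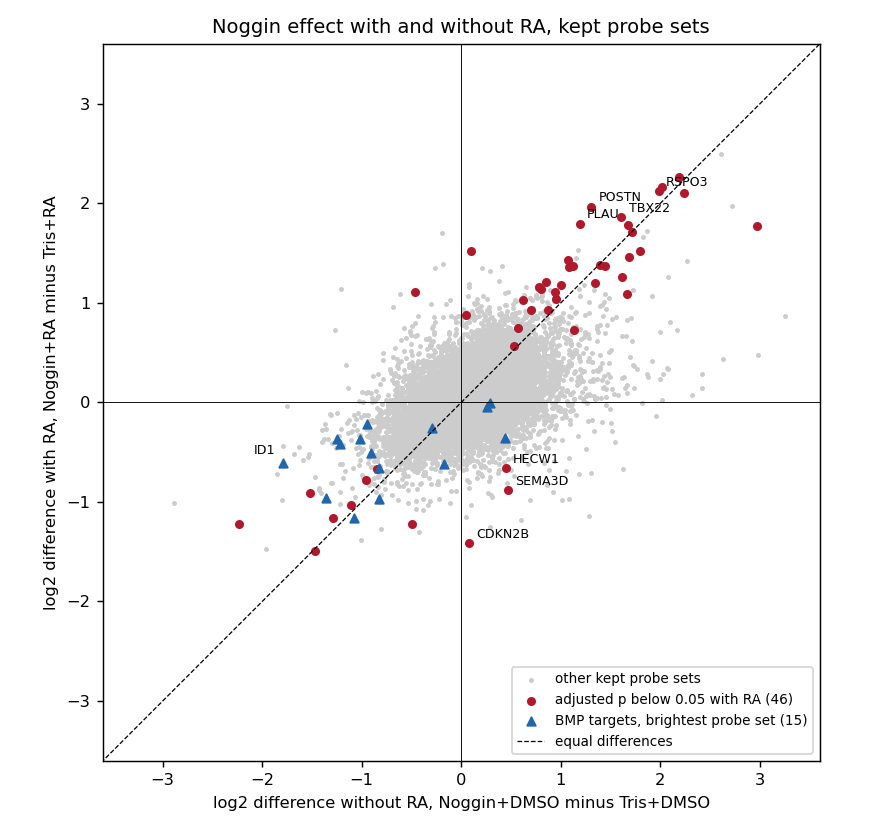
Each point is a probe set, placed by its log2 Noggin difference without RA (Noggin+DMSO minus Tris+DMSO) and with RA (Noggin+RA minus Tris+RA). Red points are the 46 called with RA, blue triangles are the 15 BMP targets, and the dashed line marks equal differences. Most red points lie in the corners of equal sign (42 of 46), and SEMA3D, HECW1, CDKN2B and PEMT are the 4 in the corners of opposite sign.

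RSPO3 (1.98), TBX22 (1.61), NKX3-2 (1.68), EMX2 (1.79) and COL12A1 (1.34) were also called higher in Noggin+DMSO than in Tris+DMSO. Sizes with and without RA are not compared for NKX3-2 and EMX2, since only 1 of 3 Tris+RA arrays for NKX3-2 and 1 of 3 Tris+DMSO arrays for EMX2 were above background. BMP5 (-1.11, adjusted p = 0.00693) and ALDH1A2 (-1.29, adjusted p = 0.00341) likewise fell without RA. ID1 without RA was at 578, 513 and 545 in Noggin+DMSO and 2139, 1735 and 1925 in Tris+DMSO, a difference of -1.79 (adjusted p = 0.000592). BMP targets had a median of -0.91 without RA, with 7 of 15 called lower, where 2.27% of all genes were.

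Whether the Noggin effect itself differed with RA was tested by the interaction, the difference with RA minus the difference without. limma called 0 probe sets for it, with a smallest adjusted p of 0.125 and 1274 (5.97%) at an unadjusted p below 0.05. With 64 added before log2 SEMA3D was called (-1.14, adjusted p = 0.0441), and without Noggin+RA replicate 1 KAT2B, a histone acetyltransferase, was called (-2.33, adjusted p = 0.0260). KAT2B read 22.25 and 22.63 in Noggin+RA replicates 2 and 3, below their background levels of 45.4 and 39.9. Only 1 of 3 Tris+DMSO arrays was above background for KAT2B, so its estimate rests on values below background. Since the main fit called 0 probe sets for the interaction, values of single genes below are given as estimates that did not pass. Of the 15 BMP targets, 5 had an interaction p below 0.05 unadjusted, where 6.04% of all genes did. In size 12 were smaller with RA, against 61.8% of all genes. ID1 had an interaction of 1.19 (unadjusted p = 0.000162, adjusted p = 0.248).

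SEMA3D had the smallest interaction p. Without RA it read 361, 344 and 367 in Noggin+DMSO and 266, 244 and 249 in Tris+DMSO, a difference of 0.47 where that with RA was -0.88. The interaction was -1.35 (SE 0.183, unadjusted p = 9.7e-06, adjusted p = 0.125). HECW1 followed with 0.44 without RA and an interaction of -1.11 (adjusted p = 0.125), subject to the disagreement among its probe sets. CDKN2B without RA read 37.9, 23.3 and 29.5 in Noggin+DMSO and 36.0, 28.6 and 19.6 in Tris+DMSO, so those groups overlapped (difference 0.07, adjusted p = 0.823). Most of these values were below background, with 0 of 3 Noggin+DMSO and 1 of 3 Tris+DMSO arrays above it, and the interaction was -1.49 (unadjusted p = 7.06e-05, adjusted p = 0.196). Of the 22 maxillary and first arch factors, 7 had an unadjusted interaction p below 0.05, where 6.04% of all genes did, and 17 were smaller in size with RA, where 61.8% were. DLX5, a homeobox gene of the lower jaw, differed by 0.06 with RA (adjusted p = 0.931) and by 1.33 without (adjusted p = 0.00724), with an adjusted interaction p of 0.473. PRRX1 differed by -0.52 with RA and -1.69 without (adjusted interaction p of 0.473). ALDH1A3, another RA-synthesising enzyme, differed by 0.87 with RA (adjusted p = 0.369) and by 3.25 without (adjusted p = 0.00249), with an adjusted interaction p of 0.479.

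The remaining lists had few or no calls. FGF pathway genes (19 kept of 24) and Notch genes (12 kept) had 0 called by limma. At an unadjusted p below 0.05, 1 FGF and 1 Notch gene were higher, where 8.11% of all genes were. At that p 2 FGF genes were lower, where 5.24% of all genes were. Heat shock genes (25 kept) had 0 called, 23 estimates below 0 and 5 lower at an unadjusted p below 0.05, where 5.24% of all genes were, with a median of -0.10. Apoptosis and p53 target genes (18 kept) had 0 called, with 2 lower at an unadjusted p below 0.05. Among cartilage genes 9 of 20 were kept and the 1 that rose was NKX3-2, where 0.207% of all genes rose.

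Markers of other cell types that the dissection could hold were compared as lists. Red blood cell genes (15 of 27 kept) had 0 called and 0 at an unadjusted p below 0.05, with 14 estimates above 0 and a median of 0.20, which was -0.09 with the GAPDH covariate. Their summed intensity was 31730 to 37370 in Noggin+RA and 24740 to 37310 in Tris+RA, so the groups overlapped. Muscle genes (11 kept) summed to 1691 to 2280 in Noggin+RA and 1483 to 1638 in Tris+RA, and retina genes (7 kept) to 774 to 1050 in Noggin+RA and 589 to 717 in Tris+RA. Those 2 sums did not overlap, and in each list limma called 0 members. At an unadjusted p below 0.05, 2 muscle genes were higher and 1 lower, and 2 retina genes were higher. Of all genes, 8.11% were higher and 5.24% lower at that p. Endothelial, white blood cell, thrombocyte, neuron, glia and lens lists overlapped between the groups in summed intensity and had 0 called, with 0 to 2 members each at an unadjusted p below 0.05. The part of these cell types in the named differences was not tested.

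**Figure D5:**
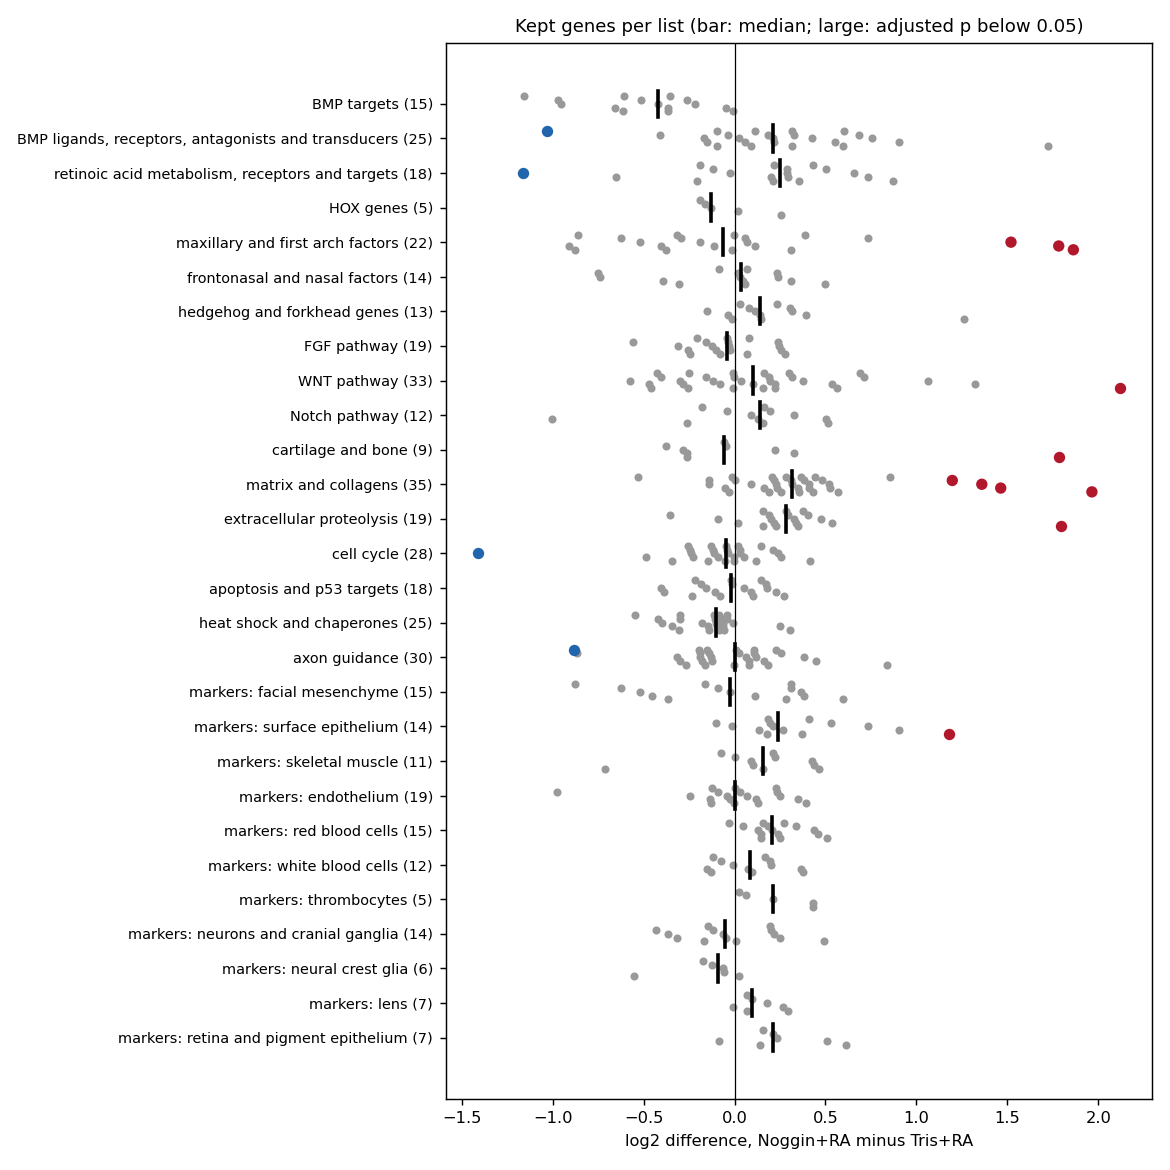
Log2 difference of Noggin+RA minus Tris+RA for the kept genes of 28 gene lists, 1 list per line and 1 point per gene. Vertical bars are list medians and large points are genes past an adjusted p of 0.05. The median is -0.42 for BMP targets and 0.32 for extracellular matrix genes, and lists whose median is near 0, such as the frontonasal factors (0.04), can turn sign with another scaling.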

How the data were processed

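RNA of pooled maxillary prominences was measured on 12 one-colour Affymetrix chicken arrays in 4 groups of 3. The deposited table holds 1 linear intensity per probe set and array. The authors had scaled them, as found in the values, so that the mean without the top and bottom 2% of probe sets was 150.03 on every array. The summarization software is not given in the sources used here. Such scaling fixes each array's mean, so if many probe sets rise together the others are pushed down. Per the labels' protocols, 500 ng of total RNA was labelled in a two-cycle procedure, which is sensitive to how complete the RNA is.

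Of 38535 probe sets, 37693 were chicken sequences. The 21354 above their own array's median on at least 3 of 12 arrays were kept (16266 with 1 gene symbol, 104 with several, 4984 with none, 10158 genes). Gene names came from the platform annotation, and 16122 kept probe sets matched the RefSeq gene table, where 0 symbols differed. Genome positions were not used here.

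The deposited intensities were analysed as log2(value + 16). limma 3.58.1 (lmFit and eBayes, R 4.3.3) fitted 1 mean per group to all 12 arrays (8 residual degrees of freedom), with two-sided tests and Benjamini-Hochberg adjustment over all kept probe sets. Background was the 95th percentile of 689 virus probe sets on each array, and it sets the lower limits of folds. Differences understate the change of dim genes, and the number of arrays limits the precision. The labels do not say whether pools came from separate experiments, so p-values measure only the spread between these pools. Genes were named by a rule: with exactly 1 symbol that is no accession, LOC number or open reading frame code, the brightest kept probe set of a gene, called, with groups not overlapping, the 15 largest differences in each direction, with genes of smallest p added up to 10 where fewer qualified, plus members of gene lists. The comparison, members and lists were chosen with earlier results of these data known. Correlations of the deviations, rather than the values, of same-numbered Noggin+RA and Tris+RA arrays (0.00318, -0.0978 and 0.0267) did not show that replicate numbers pair the arrays. Alternatives were the offset, filter, scaling, arrays fitted, threshold, a replicate block, an RNA quality covariate, and leaving out each array. The procedure was run on simulated data with independent noise and changes only in Noggin+RA. That simulation held no difference in RNA quality or background between groups, so it cannot show how such differences affect these calls.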

Additional observations from a re-analysis of the deposited data

How the results depend on the processing

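The 46 calls of Noggin+RA against Tris+RA depended on the settings, while the direction of each did not in any of them. As the groups did not overlap for these 46, only another scaling or the GAPDH covariate could have changed a direction. There were 72 calls with 64 added before log2 (43 of the 46 among them), 18 with 1 added, 16 with no filter on dim probe sets (13 of the 46), 28 after quantile normalization (27 of the 46), 37 after median centring (30 of the 46), 118 at an adjusted p below 0.10, 1 when only the 6 arrays compared were fitted (4 residual degrees of freedom) and 0 by limma with the GAPDH 5' over 3' ratio as a covariate (1720 at an unadjusted p below 0.05). With the replicate number as a block there were 12 calls, all among the 46. Leaving out 1 array gave 12 to 37. The cause of these differences was not tested. The GAPDH ratio did not overlap between the groups, so the fit with it cannot tell RNA completeness and Noggin apart. The share of calls that were higher in Noggin+RA was 76.1%, but 64.3% after quantile normalization and 51.4% after median centring, which moved the median over all kept probe sets to -0.09, against 0.04. The interaction gave 0 calls in limma (1274 at an unadjusted p below 0.05), except 1 with 64 added (SEMA3D) and 1 without Noggin+RA replicate 1 (KAT2B), so leaving out 1 array gave 0 to 1. The BMP target median stayed between -0.60 and -0.36. Probe sets near background limit what can be said of dim genes.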

Other observations

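Called genes outside the naming rule, chosen here after their values were seen, included further secreted and membrane proteins. WISP1, a matricellular protein of the CCN family, read 167, 167.5 and 162 in Noggin+RA and 89.6, 65.1 and 85.2 in Tris+RA (difference 0.93, limma adjusted p = 0.0480). MMP23A, a membrane-bound metalloproteinase, read 106, 112 and 203 in Noggin+RA and 50.1, 54.8 and 57.6 in Tris+RA (difference 1.10, adjusted p = 0.0480). In both the lowest Noggin+RA array was above the highest Tris+RA array. FBLN5, the elastic fibre protein fibulin 5, was called on its dimmer probe set (difference 1.14, adjusted p = 0.00758) and gave 0.72 on the brighter one (adjusted p = 0.138). The serine protease HTRA3 was called on 1 of 3 probe sets (0.88), and its others gave 0.51 and 0.29. PEMT, an enzyme of phosphatidylcholine synthesis, was called on 1 probe set (1.11), while the brightest gave -0.03, so its direction is uncertain.

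Some genes had small interaction p values, and none passed the adjusted threshold. In HAPLN1, ANTXR1 and FABP5 the difference with RA was small, while in CXCL12 the estimates had opposite signs. HAPLN1, a link protein of the hyaluronan matrix, read 529, 494 and 400.0 in Noggin+RA and 575, 568.5 and 563 in Tris+RA, and 179, 141 and 162 in Noggin+DMSO and 452, 426 and 426 in Tris+DMSO. Its difference was -0.26 with RA and -1.36 without (interaction 1.09, unadjusted p = 3.96e-05, adjusted p = 0.196). ANTXR1, a collagen-binding receptor, differed by 0.15 with RA and -1.14 without, and FABP5, a fatty acid binding protein, by -0.14 with RA and 0.92 without. CXCL12, a chemokine that guides migrating cells, read 938, 866 and 727 in Noggin+RA and 1035, 1313 and 1426 in Tris+RA, and 1547, 1709 and 1737 in Noggin+DMSO and 1072, 1051 and 1367 in Tris+DMSO. Its estimate was thus below 0 with RA (-0.56) and above 0 without (0.52), with an interaction of -1.08 (unadjusted p = 0.000314).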
